A study of Mus musculus with 9 samples.

Results

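NEDD8, the 2 subunits of its activating enzyme, its 2 conjugating enzymes, the cullins CUL1, CUL2, CUL3 and CUL4A, and the RING protein RBX1 make up a short conjugation pathway, and the 10 genes that encode them were described in the paraventricular nucleus of the hypothalamus (PVN) of mice on chow or a high-fat diet. The genes were picked by symbol from a table of 27179 genes, all 10 were found, and all 10 passed the filter on low counts that kept 17344 genes. They were chosen with results of these counts already known, so their levels and differences are given as a description with no test of their own.

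Bulk RNA sequencing had been done on PVN tissue punches from 9 male wild-type C57BL/6 mice (C57BL/6J in the study's methods), with 3 independent mice in each of 3 groups. Chow for the Control mice held 16% of calories as fat, the HFD diet held 60% and was fed for 12 weeks, and HFD+Mino mice were fed HFD and drank minocycline, a tetracycline antibiotic with anti-inflammatory action, at 40 mg/kg/day over the last 6 weeks. The age label was 35 days, which matches the 5 weeks at which the diet began. No group received minocycline on chow, so the drug was measured only on top of the fat diet. The diet comparison asks what HFD does to the PVN, and the other comparisons ask how far the HFD+Mino samples lie from HFD and from Control.

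NEDD8 is a small ubiquitin-like protein. The heterodimer of NAE1 and UBA3 activates it, the E2 enzymes UBE2M or UBE2F take it over, and a RING protein helps to place it on a cullin, which is the scaffold of a cullin-RING ubiquitin ligase. UBE2M works with RBX1 and the cullins described here, and UBE2F with RNF7 and CUL5. A neddylated cullin is in its active form, the COP9 signalosome removes NEDD8, and CAND1 binds cullins that lack it and lets substrate receptors be exchanged. In the brain, cullin ligases are known for turning over signaling and synaptic proteins.

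The shallowest library (HFD replicate 1) held 17728590 counts and the deepest (Control replicate 1) 42326213. The libraries differed in what the punches held. Control replicate 1 had 0.149 CPM (counts relative to the scaled library size) of Avp, 0.77 of Oxt and 0.77 of Sim1, which mark PVN neurons, with Otp at 0 and Trh at 5.489 CPM, whereas Crh, at 20.59 CPM, was within the range of the other Control samples (18.04 and 52.58). HFD+Mino replicates 1 and 2 had 28050 and 22180 CPM of Avp against 1218 in replicate 3. Control replicate 2 had 2560 CPM of Pmch and 812.5 of Hcrt, which mark lateral hypothalamic neurons, and Control replicate 1 had 390.5 and 73.42, against at most 51.23 and 7.021 in the other 7 samples. The 6 PVN neuron markers summed to 27.8 to 2560 CPM in Control, 2480 to 3730 in HFD and 3100 to 37700 in HFD+Mino, and 6 oligodendrocyte markers to 3320 to 27600, 2280 to 6260 and 1970 to 5370. The sums of 6 microglia markers were 239 to 365, 305 to 337 and 326 to 332 CPM, those of neighbouring nuclei 33.4 to 3400, 15.3 to 36.1 and 32.6 to 158, and those of choroid plexus and ependyma 19.8 to 96.7, 102 to 181 and 198 to 394. General neuron markers summed to 3990 to 6600, 2880 to 4820 and 3500 to 3900 CPM, astrocyte markers to 4180 to 6030, 4360 to 5080 and 3550 to 4350, and endothelial markers to 130 to 265, 108 to 147 and 127 to 393. The part of these differences between punches in the results was not tested beyond leaving out samples. Rn45s, the ribosomal RNA precursor, had 239 to 461 CPM in Control, 3477 to 3829 in HFD and 426 to 1346 in HFD+Mino. Otp and Nr5a1 were at 0 in at least 1 sample. In punches, fewer cells of a type and less RNA per cell cannot be told apart.

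Ube2m was the gene of the 10 that stood furthest apart by group. It encodes the NEDD8 E2 that serves most cullins. It had 244, 183 and 143 CPM in Control replicates 1 to 3, 11.4, 15.3 and 12.3 CPM in HFD, and 135, 90.5 and 189 CPM in HFD+Mino. Every HFD sample lay far below each of the 6 other samples, and the Control and HFD+Mino ranges overlapped. The fitted log2 fold change was -3.87 ± 0.33 (SE) for HFD against Control, 3.41 ± 0.32 for HFD+Mino against HFD and -0.46 ± 0.29 for HFD+Mino against Control. Without Control replicate 1, the sample low in Avp, Oxt and Sim1, the difference of HFD from Control was -3.65 ± 0.33, and without Control replicate 2, the sample high in Pmch and Hcrt, it was -3.88 ± 0.38. The raw counts behind the HFD values were 227, 529 and 494 reads.

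The other NEDD8 E2, Ube2f, did not share this pattern. Its levels were 66.8, 52.1 and 36.4 CPM in Control, 38.5, 42.0 and 40.8 CPM in HFD and 66.0, 80.5 and 49.4 CPM in HFD+Mino. The Control and HFD ranges overlapped, while all HFD+Mino samples lay above all HFD samples. Its log2 fold change was -0.36 ± 0.26 for HFD against Control and 0.69 ± 0.26 for HFD+Mino against HFD. Within a library, which removes its scaling, reads on Ube2m outnumbered those on Ube2f by 3.51 to 3.93 times in Control, while the ratio was 0.296, 0.365 and 0.301 in HFD. The ratio was 2.05, 1.12 and 3.83 in HFD+Mino, with replicates 1 and 2 between the other groups and replicate 3 inside the Control range.

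**Figure D1:**
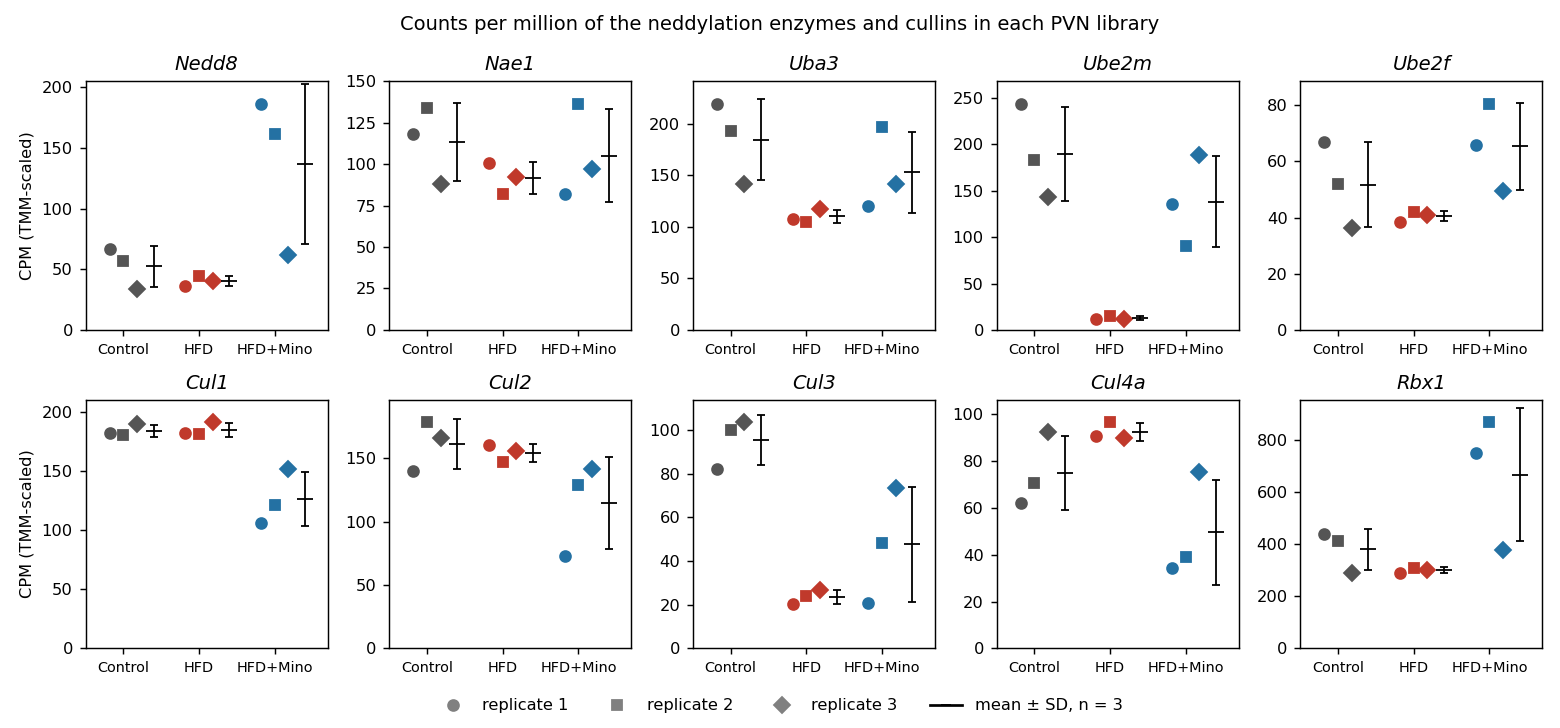
CPM of the 10 genes in each library, on axes that start at 0, with 1 marker shape per replicate number and the mean ± SD of 3 mice in black. The 3 HFD samples of Ube2m sit at 11.4 to 15.3 CPM, below 90.5 CPM in the lowest of the other 6 samples, while Cul1 is level in Control and HFD and lower in HFD+Mino.

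Ube2m lies on the minus strand of chromosome 7 at 13035120 to 13038275 (GRCm38.p6, RefSeq), and Cul3, the cullin furthest below Control in HFD, on the minus strand of chromosome 1 at 80264923 to 80340690. The 250 bases before their outermost annotated starts are shown from RefSeq. Each is beside a 250-base window of the gene it is compared with, Ube2f for Ube2m and Cul1 for Cul3. The windows of Ube2m, Cul3 and Cul1 adjoin the outermost start of the gene. That of Ube2f does not, since it lies before a start further in, inside the annotated gene (91249690 to 91286521). The windows are chr7:13038276-13038525 (minus strand) for Ube2m, chr1:91250054-91250303 (plus strand) for Ube2f, chr1:80340691-80340940 (minus strand) for Cul3 and chr6:47453482-47453731 (plus strand) for Cul1, and capitals mark CpG dinucleotides.
Ube2m: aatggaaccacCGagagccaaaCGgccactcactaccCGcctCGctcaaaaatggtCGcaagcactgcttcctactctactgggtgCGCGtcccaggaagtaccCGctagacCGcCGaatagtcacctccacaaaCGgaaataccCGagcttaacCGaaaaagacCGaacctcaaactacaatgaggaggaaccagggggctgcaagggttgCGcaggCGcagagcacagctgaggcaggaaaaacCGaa
Ube2f: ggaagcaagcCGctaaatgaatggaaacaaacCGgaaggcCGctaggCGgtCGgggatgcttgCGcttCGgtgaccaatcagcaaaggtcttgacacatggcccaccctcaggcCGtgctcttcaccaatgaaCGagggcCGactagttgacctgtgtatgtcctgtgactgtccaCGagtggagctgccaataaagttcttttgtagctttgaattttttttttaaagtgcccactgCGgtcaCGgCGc
Cul3: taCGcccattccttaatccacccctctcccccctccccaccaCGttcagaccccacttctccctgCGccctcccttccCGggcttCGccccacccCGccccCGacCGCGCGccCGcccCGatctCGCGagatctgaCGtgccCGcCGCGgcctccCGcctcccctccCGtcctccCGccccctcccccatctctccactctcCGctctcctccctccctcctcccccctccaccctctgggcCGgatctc
Cul1: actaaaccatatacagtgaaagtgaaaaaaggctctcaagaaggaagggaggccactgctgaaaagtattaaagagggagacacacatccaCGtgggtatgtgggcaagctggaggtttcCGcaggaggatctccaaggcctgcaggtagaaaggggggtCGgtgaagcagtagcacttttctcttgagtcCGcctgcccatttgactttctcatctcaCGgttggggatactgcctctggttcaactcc
The windows hold 17 CpG in Ube2m, 14 in Ube2f, 23 in Cul3 and 5 in Cul1, against a median of 6 over 27025 promoters of this length, and their GC content is 56.0%, 52.8%, 73.2% and 50.8% against a median of 52.0%. Short motifs were searched on both strands in the 9 genes that have an entry. The ETS motif CCGGAAG, in 7.07% of all promoters, was in Nedd8 and Ube2f. The GC box GGGCGG, in 33% of all promoters, was in Uba3, Cul3, Cul4a and Rbx1. The E box CACGTG, in 6.04%, was in Cul1. The TATA box TATAAA, in 13%, was in none of the 9. Ube2m and Nae1 held none of the 4, and a match describes the letters of the window and not a site.

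Nedd8 itself, the modifier, was highest in HFD+Mino. Its levels were 66.6, 57.2 and 33.9 CPM in Control, 36.04, 44.5 and 40.6 CPM in HFD and 187, 162 and 61.7 CPM in HFD+Mino. The HFD samples lay within the Control range, and each HFD+Mino sample lay above each HFD sample, with replicate 3 the lowest and inside the Control range. The log2 fold change was -0.38 ± 0.37 for HFD against Control, 1.76 ± 0.38 for HFD+Mino against HFD and 1.38 ± 0.38 for HFD+Mino against Control. Nedd8 lies on the minus strand of chromosome 14 at 55662263 to 55671880, and 184 nt of its exons (14.6%) overlap Gmpr2 on the opposite strand, so reads there cannot be assigned to 1 gene if strand was not used in counting.

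The subunits of the activating enzyme lay closer together across groups than Ube2m. Nae1, its regulatory subunit, had 118, 134 and 87.7 CPM in Control, 101, 81.8 and 92.1 CPM in HFD and 82.0, 136 and 96.7 CPM in HFD+Mino. All 3 ranges overlapped, and its log2 fold change was -0.31 ± 0.25 for HFD against Control and 0.20 ± 0.25 for HFD+Mino against HFD. Uba3, the catalytic subunit, had 219, 193 and 142 CPM in Control, 108, 105 and 117 CPM in HFD and 120.5, 196 and 141 CPM in HFD+Mino. Each HFD sample of Uba3 lay below all 6 others, by a narrow margin from HFD+Mino replicate 1. The log2 fold change of Uba3 was -0.75 ± 0.24 for HFD against Control, -0.61 ± 0.27 without Control replicate 1, and 0.47 ± 0.24 for HFD+Mino against HFD. The ratio of Uba3 to Nae1 reads within a library was 1.86, 1.44 and 1.62 in Control, 1.07, 1.28 and 1.27 in HFD and 1.47, 1.44 and 1.46 in HFD+Mino, so the HFD ratios were the lowest in every case.

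Among the cullins, Cul3 was set apart from the rest. Cul3 is the scaffold for ligases whose substrates are bound by BTB domain proteins such as KEAP1. It had 82.1, 99.97 and 104 CPM in Control, 20.3, 24.0 and 26.6 CPM in HFD and 20.8, 48.3 and 73.5 CPM in HFD+Mino. HFD lay below Control without overlap, and HFD+Mino was spread from the HFD level in replicate 1 to near the Control level in replicate 3. The log2 fold change of Cul3 was -2.01 ± 0.38 for HFD against Control, 1.01 ± 0.37 for HFD+Mino against HFD and -1 ± 0.37 for HFD+Mino against Control. Without Control replicate 1 the HFD against Control value was -2.11 ± 0.41 and without Control replicate 2 it was -1.96 ± 0.44. Without HFD+Mino replicate 3, which lay closest to Control, the HFD+Mino against HFD value was 0.55 ± 0.32, and without replicate 1 it was 1.37 ± 0.25. Within a library the ratio of Cul3 to Cul1 reads was 0.45, 0.554 and 0.545 in Control, 0.111, 0.132 and 0.139 in HFD and 0.196, 0.397 and 0.485 in HFD+Mino.

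Cul1, the scaffold of the SKP1 and F-box ligases, was level between Control and HFD. It had 182.5, 180.5 and 190 CPM in Control, 183, 181 and 192 CPM in HFD and 106, 122 and 152 CPM in HFD+Mino. All HFD+Mino samples lay below the other 6 samples, and the log2 fold change of HFD+Mino was -0.55 ± 0.20 against HFD and -0.54 ± 0.20 against Control. Cul2, the scaffold for the VHL ligase, had 140, 179 and 166 CPM in Control, 161, 147 and 156 CPM in HFD and 73.2, 129 and 142 CPM in HFD+Mino. The HFD samples of Cul2 lay inside the Control range, HFD+Mino lay below HFD without overlap, and its log2 fold change was -0.43 ± 0.25 for HFD+Mino against HFD. Cul4a, which uses DDB1 as its adaptor, had 62.0, 70.4 and 92.4 CPM in Control, 90.6, 96.5 and 89.7 CPM in HFD and 34.5, 38.9 and 75.1 CPM in HFD+Mino. HFD+Mino lay below HFD without overlap, and its log2 fold change was -0.90 ± 0.30 against HFD and 0.30 ± 0.29 for HFD against Control.

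Rbx1, the RING protein that joins the cullin to its E2, was high in the HFD+Mino samples, where Cul1, Cul2 and Cul4a were low. It had 439.5, 413 and 290 CPM in Control, 289, 311 and 303 CPM in HFD and 754, 871 and 380 CPM in HFD+Mino. HFD+Mino lay above HFD without overlap, with replicate 3 inside the Control range, and the log2 fold change was -0.34 ± 0.30 for HFD against Control and 1.15 ± 0.30 for HFD+Mino against HFD. A processed pseudogene, Rbx1-ps, matched Rbx1 at 99.1% over 327 nt and had at most 216 counts in a library, so some Rbx1 reads could have been placed there. Ube2f, Uba3 and Cul4a also had pseudogenes alike in sequence. Among them, Gm7099 matched Ube2f at 97.7% over 558 nt and Gm5434 at 92.9% over 1238 nt, with at most 66 counts for Gm5434. Gm14538 matched Uba3 at 92.5% over 1331 nt, and AC165087.1 matched Cul4a at 91.7% over 844 nt. The part of these copies in the counts was not tested. Over the 9 samples Nedd8 and Rbx1 had a Pearson correlation of 0.98 of log2 CPM and Nedd8 and Cul4a of -0.98, given as a description, since the samples share groups, libraries and the exon length pattern described next.

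**Figure D2:**
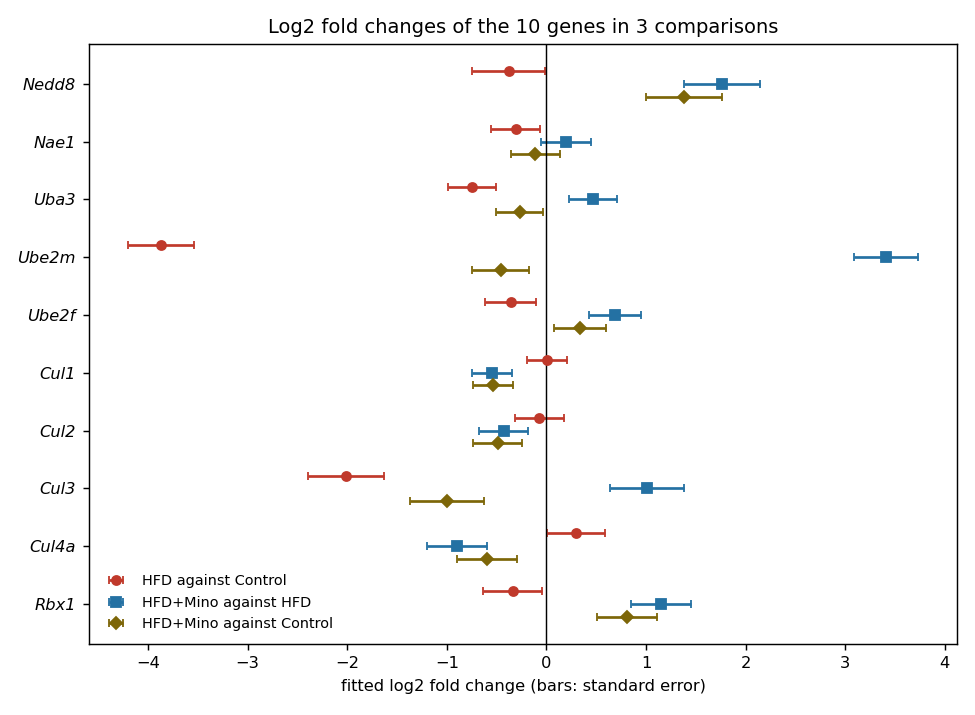
Fitted log2 fold change ± SE of each gene in 3 comparisons, with circles for HFD against Control, squares for HFD+Mino against HFD and diamonds for HFD+Mino against Control. Ube2m at -3.87 and Cul3 at -2.01 stand far to the left for HFD against Control, and the squares run from 3.41 for Ube2m to -0.90 for Cul4a.

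Exon length ran along with the HFD+Mino against HFD values. Tested genes were put in 4 groups of about equal size by the length of their exons in RefSeq transcripts, and their median log2 fold change for HFD+Mino against HFD was 0.90 in the shortest group, 0.06 and -0.46 in the middle groups and -0.67 in the longest. The same groups had medians of -0.30, -0.11, 0.13 and 0.48 for HFD against Control. Nedd8 (514 nt), Ube2f (1363 nt), Ube2m (1658 nt), Rbx1 (1675 nt) and Nae1 (1808 nt) fall in the shortest group, Uba3 (2594 nt) in the next, Cul1 (3161 nt), Cul4a (3728 nt) and Cul2 (3828 nt) in the third, and Cul3 (4709 nt) in the longest.

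With a smooth trend on exon length taken out of each library, the HFD+Mino against HFD value of Nedd8 was 0.27 ± 0.14, that of Rbx1 0.53 ± 0.22, that of Ube2f -0.13 ± 0.18 and that of Cul1 -0.28 ± 0.14. Those of Cul2 and Cul4a were 0.03 ± 0.20 and -0.50 ± 0.20. The same step put Nedd8 at -0.02 ± 0.14 for HFD+Mino against Control, where it had been 1.38. Ube2m and Cul3 kept their direction, and they were not set against the spread of other genes of their length. Ube2m was at -3.58 ± 0.33 for HFD against Control and 2.86 ± 0.32 for HFD+Mino against HFD, and Cul3 at -2.31 ± 0.31 and 1.59 ± 0.30. The part of RNA quality or library preparation in the length pattern was not tested.

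**Figure D3:**
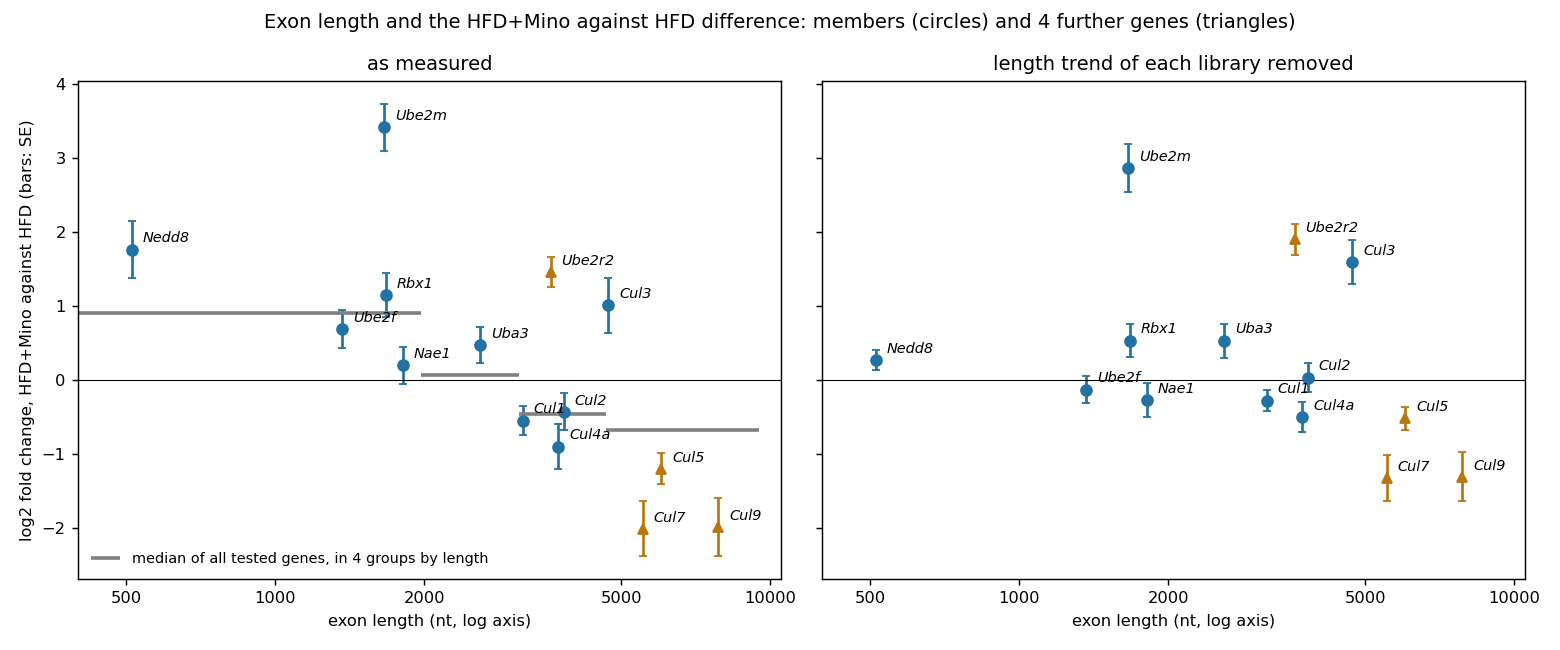
Log2 fold change ± SE of HFD+Mino against HFD by exon length (log axis), for the 10 genes as circles and Cul5, Cul7, Cul9 and Ube2r2 as triangles, before and after a trend on length was removed from each library. Grey lines give the median of all tested genes in each of the 4 length groups, which falls from 0.90 to -0.67, and Nedd8 moves from 1.76 to 0.27 while Ube2m stays above the rest at 2.86.

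The GC-richest 100 nt of the transcript was 89% GC in Ube2m, 86% in Cul3, 85% in Cul4a and 82% in Cul1, and 58% in Nedd8, 59% in Uba3 and 66% in Rbx1, where the median transcript tested had 73%. Of the further genes described next, Ube2r2 and Dcun1d1 also had 89%. With a trend on the GC content of the whole transcript taken out of each library, Ube2m was at -3.69 ± 0.28 and Cul3 at -2.21 ± 0.38 for HFD against Control. The part of the GC-rich stretch in these values was not tested. Rn45s was high in HFD, the group in which Ube2m and Cul3 were low, and with Rn45s, Rn18s and the mitochondrial genome left out of the library sizes Ube2m was again at -3.87 and Cul3 at -2.01. That step changes only the genes fitted and the library sizes, and the part of ribosomal RNA in these values was not tested.

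Counted over the 10 genes, 1 gene was lower in HFD than in Control at an FDR under 0.01 (edgeR's quasi-likelihood test, Benjamini-Hochberg over all tested genes) and at least 1.5-fold, namely Ube2m, against 1.42% of all tested genes called lower, 0.317% called higher and 1.74% called in either direction. For HFD+Mino against HFD, 1 gene was higher, again Ube2m, against 1.98% of all genes called higher, 2.16% called lower and 4.15% called in all. In the 3-way test, which asks that HFD be highest or lowest and 1.5-fold or more away from the average of all 3 groups, 1 gene was lower in HFD, at -2.42 ± 0.21, against 1.21% of all genes called lower, 0.917% called higher and 2.13% called in all. For HFD+Mino against Control, 0 of the 10 genes and 0% of all genes were called. Nothing is read from these counts, since the genes were chosen with the results known.

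HFD lay below Control without overlap for Uba3, Ube2m and Cul3, as it did for 16% of all tested genes, and above it for none of the 10, against 19.7%. HFD+Mino lay above HFD without overlap for Nedd8, Uba3, Ube2m, Ube2f and Rbx1, against 23.3% of all genes, and below it for Cul1, Cul2 and Cul4a, against 23.5%. HFD+Mino lay below Control for Cul1 and Cul3, against 10.1% of all genes, and above it for none of the 10, against 8.93%. HFD lay below all 6 other samples for Uba3 and Ube2m, against 9.62%, and above them for none of the 10, against 13.4%. The median log2 fold change of the 10 genes was -0.35 for HFD against Control, 0.58 for HFD+Mino against HFD and -0.36 for HFD+Mino against Control, where the medians of all tested genes were 0, 0.01 and -0.02.

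Control and HFD+Mino samples of the same replicate number deviated together in these same counts, a pairing that no label gives. With the number as a block in those 2 groups the numbers called were higher over the 10 genes and over all genes. Among the 10 genes they became 2 for HFD against Control (Cul3 and Ube2m, both lower), 4 for HFD+Mino against HFD (Nedd8, Rbx1 and Ube2m higher and Cul4a lower), 1 for HFD+Mino against Control (Nedd8, higher) and 3 in the 3-way test (Cul3, Nedd8 and Ube2m, lower in HFD). Of all tested genes, 6.22%, 25.6%, 3.18% and 13.2% were called in the same fit. This block takes the shared variation of Control and HFD+Mino out of the spread, also where they are set against HFD, whose samples have no such term. With the block and the length trend removed together, 2 genes were called for HFD against Control and for HFD+Mino against HFD, Cul3 and Ube2m in both, against 4.84% and 10.8% of all genes.

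Levels can be compared between genes only per length. In Control the mean level was 227 ± 47.6 RPKM (CPM per kilobase of exon, SD, n = 3) for Rbx1, 114.5 ± 30.7 for Ube2m and 102 ± 32.7 for Nedd8. It was 71.2 ± 15.2 for Uba3, 62.6 ± 12.9 for Nae1, 58.3 ± 1.58 for Cul1, 42.2 ± 5.12 for Cul2, 38.0 ± 11.2 for Ube2f, 20.2 ± 2.43 for Cul3 and 20.1 ± 4.22 for Cul4a. Ube2m and Nedd8 did not differ beyond their spread, and neither did Uba3, Nae1 and Cul1, Cul2 and Ube2f, or Cul3 and Cul4a.

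In HFD the order per length was otherwise. Rbx1 led at 180 ± 6.82 RPKM, followed by Nedd8 at 78.6 ± 8.23 and Cul1 at 58.6 ± 1.79, while Ube2m, next to Rbx1 in Control, was the lowest but for Cul3, at 7.85 ± 1.25 against 5.02 ± 0.667. Ube2f, at 29.7 ± 1.33 RPKM, was then the NEDD8 E2 with the higher level. In HFD+Mino, Ube2m was at 83.4 ± 29.7 RPKM and Ube2f at 47.9 ± 11.4.

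Of 46 further genes of neddylation and the cullin ligases, all were tested. This list and the SUMO list below were also chosen with earlier results of these data known. Their counts and adjusted p-values are therefore given as a description. For HFD against Control, 0 were higher and 1 was lower, against 1.74% of all genes called in either direction, and for HFD+Mino against HFD, 1 was higher and 3 were lower, against 4.15%. DESeq2 called 6 and 19 in these comparisons, against 6.91% and 23% of all genes. For HFD+Mino against Control, 0 were called by edgeR and 0 by DESeq2, against 0% and 1.59% of all genes. By edgeR's test 7 were at an unadjusted p under 0.05, against 3697 of all 17344 tested genes. In the 3-way test 1 was higher in HFD, Cul7, and 1 lower, Ube2r2, against 2.13% of all genes. The median log2 fold change of the list was -0.02, -0.17 and -0.08 in the 3 comparisons in pairs, beside medians of 0, 0.01 and -0.02 over all genes.

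Ube2r2 is the E2 that extends ubiquitin chains on substrates of the CUL1 ligases, and it had a pattern by group like that of Ube2m. It had 82.2, 76.5 and 71.2 CPM in Control, 27.5, 36.5 and 31.9 CPM in HFD and 92.3, 90.7 and 81.3 CPM in HFD+Mino. HFD lay below all 6 others. It fell in HFD against Control (log2 -1.26 ± 0.20, edgeR adjusted p = 0.00452) and rose in HFD+Mino against HFD (1.46 ± 0.20, edgeR adjusted p = 0.00246). The call was lost in HFD against Control without Control replicate 1 or 2 or any HFD replicate, with values from -1.37 to -1.16, and in HFD+Mino against HFD without any HFD replicate or HFD+Mino replicate 1. With the length trend removed it was called, at -1.36 ± 0.21 and 1.90 ± 0.21.

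Cul7, Cul9 and Cul5 went opposite to Ube2m and Cul3. Cul7 and Cul9 are large atypical cullins, and Cul5 is the scaffold of the ligases with SOCS box receptors. Cul7 had 6.58, 11.0 and 18.6 CPM in Control, 58.8, 38.3 and 43.3 CPM in HFD and 12.7, 8.80 and 13.3 CPM in HFD+Mino. Cul9 had 9.76, 12.6 and 30.0 CPM in Control, 55.3, 55.7 and 54.3 CPM in HFD and 15.3, 10.2 and 16.04 CPM in HFD+Mino. HFD lay above all 6 others for both genes, as it did for Cul5, which had 38.1, 41.0 and 48.3 CPM, then 80.5, 75.8 and 90.6 CPM, then 29.0, 41.1 and 37.1 CPM.

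In HFD+Mino against HFD all 3 fell, with log2 fold changes of -2.01 ± 0.37 for Cul7 (edgeR adjusted p = 0.00791), -1.99 ± 0.39 for Cul9 (edgeR adjusted p = 0.00914) and -1.20 ± 0.21 for Cul5 (edgeR adjusted p = 0.00692). For HFD against Control none of the 3 passed, with values of 1.95 ± 0.37 for Cul7 (edgeR adjusted p = 0.0119), 1.66 ± 0.38 for Cul9 (adjusted p = 0.0298) and 0.95 ± 0.21 for Cul5 (adjusted p = 0.025). These are long transcripts, of 5530, 7848 and 6027 nt, in the length group whose median was -0.67. With the length trend removed none of the 3 was called for HFD+Mino against HFD, at -1.33, -1.31 and -0.52, and each call was also lost without Control replicate 2, any HFD replicate or HFD+Mino replicate 1, those of Cul7 and Cul9 also without HFD+Mino replicate 2.

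The partner proteins of the pathway had smaller values. Rnf7, the RING protein that serves Cul5, had 257, 167 and 94.1 CPM in Control, 105, 112 and 106 CPM in HFD and 256, 323 and 139 CPM in HFD+Mino, an arrangement like that of Rbx1, and a log2 fold change of 1.15 ± 0.37 for HFD+Mino against HFD (edgeR adjusted p = 0.0402), which was 0.20 ± 0.24 with the length trend removed. Cul4b, the close relative of Cul4a, was at 0.29 ± 0.26 for HFD against Control and -0.35 ± 0.26 for HFD+Mino against HFD. Dcun1d1, a co-ligase that speeds NEDD8 transfer, was at -0.03 ± 0.25 and -0.38 ± 0.25. Senp8, the NEDD8 protease, was at 0.23 ± 0.23 and -0.21 ± 0.23.

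The genes of NEDD8 removal and cullin exchange were not called in the filtered edgeR fit of all 9 samples without a block or trend, but other settings called some. None of the 10 COP9 signalosome genes was called there in any of the 4 comparisons by edgeR's test, while Cops6 and Cops9 were called higher in HFD+Mino than in HFD without the filter on low counts. In that comparison DESeq2 called Cops4, Cops5, Cops6, Cops8 and Cops9 higher and Cand1 lower, against 23% of all genes called. Without HFD+Mino replicate 3 edgeR called the same COP9 genes, against 21.4% of all genes. With the GC trend removed it called Cops6, against 8.41%. Cops5, its catalytic subunit, was at -0.39 ± 0.27 for HFD against Control and 0.87 ± 0.27 for HFD+Mino against HFD. Cand1 was at 0.42 ± 0.25 and -0.90 ± 0.26. With the length trend removed, HFD+Mino against HFD was at 0.30 ± 0.21 for Cops5 and -0.23 ± 0.18 for Cand1. With the block in Control and HFD+Mino, the number of the 46 genes called was 5 for HFD against Control, 21 for HFD+Mino against HFD, 3 for HFD+Mino against Control and 10 in the 3-way test, against 6.22%, 25.6%, 3.18% and 13.2% of all genes. The 21 included, named here after their values were seen, Cops4, Cops5, Cops6, Cops8, Cops9 and Rnf7, higher in HFD+Mino, and Cand1, lower. With the length trend removed as well the numbers were 5, 9, 0 and 4, and the 9 included Cops6 but not Cops5, Rnf7 or Cand1.

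**Figure D4:**
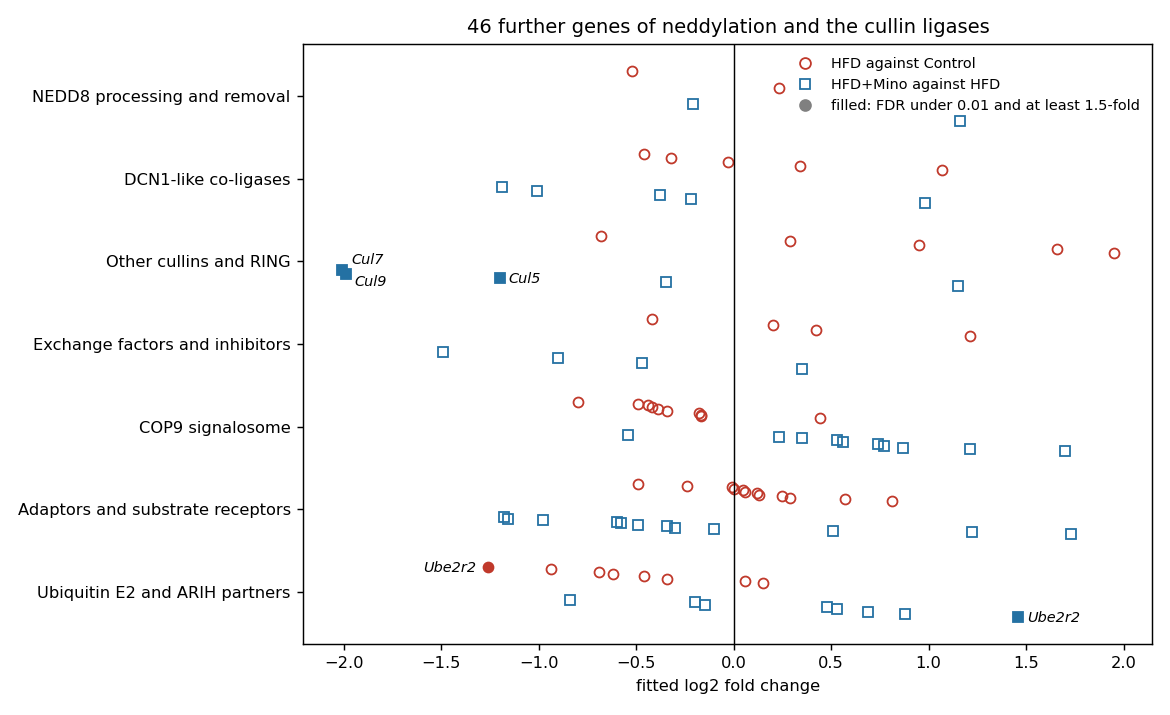
Fitted log2 fold change of 46 further genes by role, with circles for HFD against Control and squares for HFD+Mino against HFD, filled where the gene was called. The filled points are Ube2r2 at -1.26 and 1.46, and Cul7, Cul9 and Cul5 at -2.01, -1.99 and -1.20.

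The SUMO pathway, which conjugates another ubiquitin-like modifier, was looked at for comparison. None of its 17 genes was called by edgeR in any of the 4 comparisons, against 1.74%, 4.15%, 0% and 2.13% of all genes. The order is HFD against Control, HFD+Mino against HFD, HFD+Mino against Control and the 3-way test. In the same order 3, 7, 4 and 6 of the 17 were at an unadjusted p under 0.05. Of all 17344 tested genes, 3554, 7171, 3697 and 6762 were under that p. DESeq2 called 1, 4, 1 and 1 of the 17 genes, against 6.91%, 23%, 1.59% and 13.6% of all genes. The subunits of its activating enzyme, Sae1 and Uba2, were at -0.06 ± 0.20 and 0.09 ± 0.19 for HFD against Control. The modifiers Sumo2 and Sumo3 were at 0.82 ± 0.31 and 0.63 ± 0.20 for HFD+Mino against HFD, above 0 as Nedd8 was. With the length trend removed Sumo2 was at -0.27 in that comparison. Sumo3 ran from 0.62 to 0.93 there over the alternatives that kept all samples, the length trend among them.

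The genes whose levels over the 9 samples were most like those of Ube2m were Srsf9, a splicing factor, Suds3 and Sap30l, subunits of SIN3 histone deacetylase complexes, the adaptor Shf, and Fancf of the Fanconi anemia core complex. Their Pearson correlations with Ube2m, of log2 CPM over 9 samples that share groups and libraries, were 0.9981, 0.9957, 0.9954, 0.9953 and 0.995. Suds3 had group means of 65.98, 9.027 and 59.48 CPM in Control, HFD and HFD+Mino, and Srsf9 of 57.89, 13.43 and 48.5 CPM. Sap30l was at 24.73, 4.969 and 22.11 CPM, Shf at 8.343, 2.945 and 7.022 CPM and Fancf at 9.822, 1.189 and 6.748 CPM.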

How the data were processed

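Bulk RNA sequencing counts of PVN punches were analysed in 9 samples, grouped by their labels. The authors aligned reads to mm10 with HISAT2 and assigned them to genes with featureCounts, and they deposited raw counts per gene without normalization. Versions, strand setting and handling of reads with several positions are not given in the sources used here. Libraries were made from amplified cDNA, and reads carry no molecular identifiers. Total counts ran from 17728590 to 42326213, and 958 genes without a symbol were kept in the fit, with at most 0.0932% of a library.

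All genes were fitted together with edgeR 4.0.16 in R 4.3.3 (filterByExpr, TMM, quasi-likelihood test, 1 mean per group). A gene was called at an FDR under 0.01 and at least 1.5-fold. SEs come from the F statistic, and RPKM uses RefSeq-paired exon lengths (GENCODE M21). The code was tested on simulated data. Alternatives were DESeq2 1.42.0, the unfiltered table, RLE scaling, a fit lacking Rn45s, Rn18s and mitochondrial genes, a replicate block in all groups or in Control and HFD+Mino, lowess trends (span 0.3) on exon length or GC content, and each sample left out. The block with the length trend was added after seeing the data. Exon length was known for 89.4% and GC for 90.1% of tested genes.

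Same-numbered Control and HFD+Mino samples deviated together (correlations 0.135, 0.163 and 0.292), a pairing seen in the counts alone, and those of HFD with Control (-0.133, -0.109 and -0.006) and with HFD+Mino (-0.152, -0.125 and -0.052) did not. Samples of unlike number could reach like values, as Control replicate 2 and HFD replicate 1 did at 0.167. HFD replicate numbers follow the sample titles and differ from the numbers in the count columns.

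The members and the lists were chosen with earlier results of these data known. The text names all 10 members, 9 pathway genes whatever their result (Senp8, Dcun1d1, Cul4b, Cul5, Cul7, Cul9, Rnf7, Cand1 and Cops5) and the called ones, up to 10 per comparison, 4 SUMO genes, the 5 genes most like the member furthest from the others in HFD, Rn45s, and Avp, Oxt and Sim1. The other markers and COP9 genes were named after their values were seen. Cell type markers (48 genes, 0 called in any comparison by edgeR) are given as sums. Promoters are RefSeq GRCm38.p6. Amino acid sequences were not used here. Results for some genes that the naming rule covers are not reported here. Metabolic and histological data were not analysed here.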

Additional observations from a re-analysis of the deposited data

How the results depend on the processing

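Ube2m was called in HFD against Control and in HFD+Mino against HFD under all 18 alternatives, and in the 3-way test under 16, the exceptions being those without HFD replicate 1 or 3. This is a description, since Ube2m was chosen with results of these counts known and the alternatives share their samples. Ube2m had 227 to 9818 counts per library, and 3 mice per group limit every value.

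The number of the 10 members called, which was 1 in HFD against Control, 1 in HFD+Mino against HFD, 0 in HFD+Mino against Control and 1 in the 3-way test, became 2, 3, 0 and 3 with DESeq2, 2, 2, 0 and 3 without the filter on low counts, and 2, 2, 0 and 2 with the replicate block in all samples. It was 2, 4, 1 and 3 with the block in Control and HFD+Mino, 2, 1, 0 and 2 with the length trend removed, 3, 2, 0 and 1 with the GC trend removed, and 2, 2, 0 and 2 with the block and the length trend. With 1 sample left out it ran from 1 to 2, 1 to 4, 0 to 2 and 0 to 4. The highs of 4, 2 and 4 came without HFD+Mino replicate 3, where 21.4%, 6.28% and 13.4% of all genes were called. Of all genes, 6.91%, 23%, 1.59% and 13.6% were called with DESeq2 and 1.92%, 7.61%, 0.004% and 5.19% without the filter. The shares were 1.64%, 7.89%, 0% and 2.81% with the block in all samples. With the block in Control and HFD+Mino they were 6.22%, 25.6%, 3.18% and 13.2%. They were 2.76%, 2.73%, 0% and 2.25% with the length trend removed and 2.89%, 8.41%, 0% and 3.56% with the GC trend removed. With the block and the length trend they were 4.84%, 10.8%, 0% and 6.24%.

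The number of pathway genes called, 1, 4, 0 and 2 in the same order, became 6, 19, 0 and 9 with DESeq2, 3, 9, 0 and 6 without the filter, 1, 9, 0 and 3 with the block in all samples, and 5, 21, 3 and 10 with the block in Control and HFD+Mino. It was 2, 2, 0 and 2 with the length trend removed, 3, 9, 0 and 3 with the GC trend removed, and 5, 9, 0 and 4 with the block and the length trend. With 1 sample left out it ran from 0 to 3, 0 to 18, 0 to 2 and 0 to 10. The 18 came without HFD+Mino replicate 3, where 21.4% of all genes were called. The number of SUMO genes, 0 in all, became 1, 4, 1 and 1 with DESeq2 and with the block in Control and HFD+Mino, 1 in HFD against Control with the length trend removed, 1 in HFD+Mino against HFD with the GC trend removed, and 1 and 2 in these comparisons with the block and the length trend. With 1 sample left out it ran from 0 to 0, 0 to 2, 0 to 1 and 0 to 1. For the pathway and SUMO genes, the shares of all genes called in the fits with every sample are those given for the members.

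Over all tested genes the numbers called were 302, 719, 0 and 369. They were 1198, 3992, 276 and 2366 with DESeq2, 481, 1905, 1 and 1299 without the filter, 284, 1369, 0 and 488 with the block in all samples, and 1078, 4441, 551 and 2283 with the block in Control and HFD+Mino. They were 479, 473, 0 and 391 with the length trend removed, 501, 1459, 0 and 617 with the GC trend removed, and 839, 1874, 0 and 1082 with the block and the length trend. With 1 sample left out they ran from 59 to 550, 29 to 3815, 0 to 1120 and 3 to 2396. In HFD+Mino against HFD the split was 344 higher and 375 lower, and 380 and 93 with the length trend removed.

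No member that was called changed direction. Of values that were not called, with the length trend removed those of members turned to -0.27 for Nae1, -0.13 for Ube2f and 0.03 for Cul2 in HFD+Mino against HFD, to -0.02 for Nedd8 and -0.17 for Ube2f in HFD+Mino against Control, to 0.07 for Nae1, 0.03 for Ube2f and -0.08 for Cul2 in the 3-way test, and to -0.01 for Cul1 in HFD against Control. Those of other genes turned to -0.10 for Cand1 in HFD against Control, to 0.29 for Senp8, 0.30 for Dcun1d1, 0.04 for Cul4b and -0.27 for Sumo2 in HFD+Mino against HFD, to 0.28 for Cul4b, 0.27 for Cul7 and -0.13 for Rnf7 in HFD+Mino against Control, to 0.03 for Sae1 in HFD against Control, and to -0.07 for Senp8, -0.25 for Dcun1d1 and 0.35 for Sumo2 in the 3-way test. With the block as well these were -0.10 for Cand1, 0.27 for Senp8, 0.28 for Dcun1d1, -0.27 for Sumo2, -0.11 for Rnf7, and -0.06 for Senp8, -0.23 for Dcun1d1 and 0.35 for Sumo2. Senp8 was at 0.03 in HFD+Mino against HFD with the GC trend removed, and in HFD+Mino against Control Cul9 ran from -0.62 to 0.31 and Cul7 from -0.36 to 0.40 with 1 sample left out, the highest without Control replicate 3. RLE size factors, and leaving out ribosomal and mitochondrial genes, changed no call of a member. The causes were not tested.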
